A study of Rattus norvegicus with 6 samples.

Results

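miR-140 is a microRNA (miRNA), a short RNA that represses messenger RNAs, and its hairpin gives 2 mature products, miR-140-5p from the 5′ arm and miR-140-3p from the 3′ arm. Both were taken by name (rno-miR-140-5p and rno-miR-140-3p) from the deposited count table, and they are 2 of the 764 mature rat miRNAs listed there. The libraries held RNA of 18 to 30 nucleotides from small extracellular vesicles, membrane-bound particles that cells release, purified from rat plasma, 2 ml per sample. The 3 diabetic libraries (DM-sEV) came from male wild-type Sprague-Dawley rats at 8 weeks of diabetes. Those rats were 6 to 8 weeks old when obtained, were injected with streptozotocin (STZ), which destroys the beta cells of the pancreas that make insulin, at 65 mg/kg, and had a fasting glucose above 11.1 mmol/L. The 3 control libraries (Con-sEV) came from control rats of the same strain, sex and starting age, whose injection, if any, the labels do not state. STZ models a loss of beta cells. Whether each library came from 1 animal is not stated, so the p-values measure the spread between these libraries, which may in part be technical.

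miR-140 is encoded within the Wwp2 gene, which makes a ubiquitin ligase, and is known as a miRNA of cartilage. In mouse chondrocytes the cartilage transcription factor SOX9 drives it, and mice without it have short bones and early joint degeneration. Known targets of the 5p arm are, in mouse, the aggrecan-cleaving protease ADAMTS5 and, in mouse and human cells, the chondrocyte regulator HDAC4. The arm kept in the silencing complex sets the targets, because its seed, bases 2 to 8, pairs with the messenger RNA.

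Both arms are shown because each result below is about one of them or about their ratio. The sequences are those of RefSeq on the rat build GRCr8, 5′ to 3′, with the seed in capitals. The deposited counts were made on rn6 and carry no coordinates.
miR-140-5p: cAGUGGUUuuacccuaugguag
miR-140-3p: uACCACAGgguagaaccacgg
The hairpin, at chr19:52375293-52375391 on the plus strand of GRCr8 and inside the span of Wwp2, is given next with both mature arms in capitals.
Mir140 hairpin: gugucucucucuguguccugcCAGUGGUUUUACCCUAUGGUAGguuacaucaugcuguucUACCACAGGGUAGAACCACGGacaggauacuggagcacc

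The mature 5p arm is 22 bases long and the 3p arm 21, and 17 bases of the hairpin lie between them. In the predicted lowest-energy fold, 19 of the 22 bases of the 5p arm paired with bases of the 3p arm. The seeds of the 2 arms differ, and 0 of the other rat mature miRNAs in the RefSeq table carried either of them. Of the 764 names in the count table, 689 had a RefSeq sequence. Each arm came from 1 locus, and the nearest other mature sequence differed by 9 edits from miR-140-5p and by 6 edits from miR-140-3p. The count table gives 1 row per arm, so 3p molecules that start a base earlier or later, which would have another seed, cannot be told apart.

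In every library the 3p arm was the abundant one. miR-140-3p had 380524, 203464 and 93750 counts in diabetic replicates 1, 2 and 3, against 113721, 57927 and 41744 in control replicates 1, 2 and 3. It ranked 4th, 7th and 19th among the listed miRNAs in the diabetic libraries and 14th, 22nd and 22nd in the control libraries. miR-140-5p had 4026, 2113 and 2101 counts in diabetic replicates 1, 2 and 3, against 868, 445 and 266 in control replicates 1, 2 and 3. Its ranks were 80, 96 and 90 in the diabetic libraries and 118, 137 and 155 in the control libraries. A rank needs no scaling between libraries. By rank the 5p arm stood higher in every diabetic library than in any control library, while the 3p rank of diabetic replicate 3 lay inside the control range.

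Library totals were 7490383, 7598853 and 8403856 miRNA counts in diabetic replicates 1, 2 and 3 and 8930730, 6254077 and 6539603 in control replicates 1, 2 and 3. Both arms together made up 2.99% ± 2.01 of miRNA counts in diabetic libraries and 0.953% ± 0.321 in control libraries (mean ± SD, n = 3 each). By library the share was 5.13%, 2.71% and 1.14% in diabetic replicates 1, 2 and 3, against 1.28%, 0.933% and 0.642% in control replicates 1, 2 and 3. Diabetic replicate 3 again lay inside the control range.

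Levels were compared as normalized CPM, counts per 1000000 of a library size adjusted by the trimmed mean of M values (TMM), a scaling that takes most miRNAs as equal between libraries. The normalized CPM of miR-140-5p was 422, 219 and 223 in diabetic replicates 1, 2 and 3, against 121, 72.8 and 57.9 in control replicates 1, 2 and 3. The lowest diabetic library lay above the highest control library, and diabetic replicate 1 stood above the other two. The mean was 288 ± 116 in diabetic and 84.0 ± 33.1 in control libraries (SD, n = 3 each), and the log2 fold change was 1.78 (SE 0.43). The normalized CPM of miR-140-3p was 39879, 21072 and 9946 in diabetic replicates 1, 2 and 3, against 15872, 9473 and 9094 in control replicates 1, 2 and 3. Here the groups overlapped, since diabetic replicate 3 lay below control replicate 1. The mean was 23633 ± 15130 in diabetic and 11480 ± 3809 in control libraries (SD, n = 3 each), and the log2 fold change was 1.04 (SE 0.50).

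**Figure D1:**
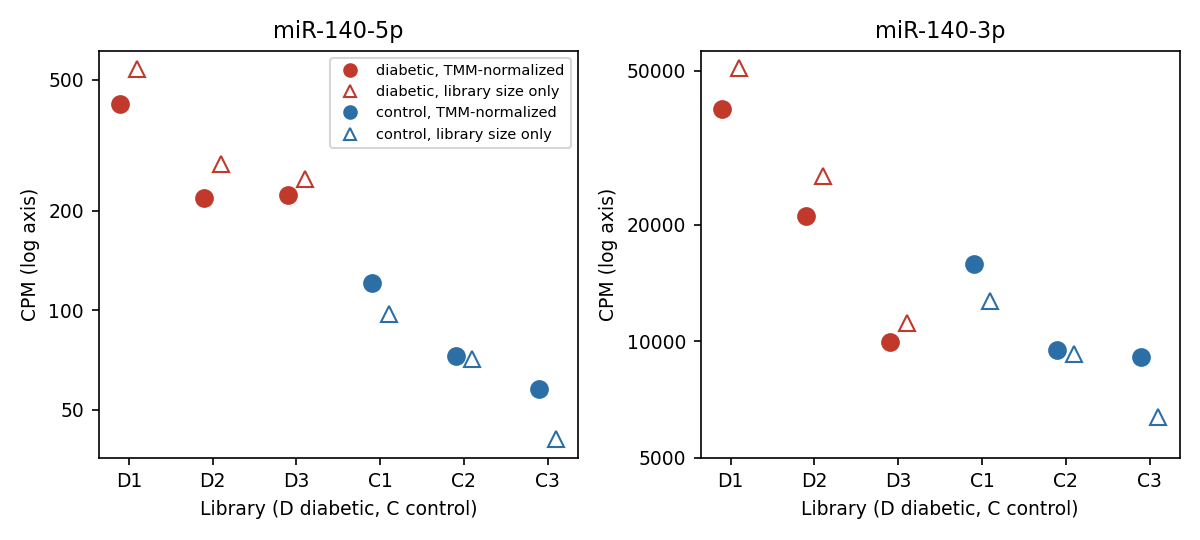
Level of miR-140-5p (left) and miR-140-3p (right) in each library, in CPM on a log axis, with filled circles for TMM-normalized and open triangles for library-size-only values, diabetic libraries (D1 to D3) in red and control libraries (C1 to C3) in blue. The 5p groups are apart under both scalings, while D3 lies below C1 for the 3p arm under both.

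miR-140 was chosen with these fold changes known, so its rows of the fit over all miRNAs are a description and support nothing. The quasi-likelihood test of edgeR, adjusted over 362 miRNAs by the Benjamini-Hochberg method, gave an adjusted p of 0.0647 for miR-140-5p and 0.222 for miR-140-3p, and neither passed the threshold of 0.05. In that fit 6 of 362 miRNAs (1.66%) passed, 2 of them higher (0.552%) and 4 lower. miR-140-5p ranked 9th of 362 by p and 9th by log2 fold change, and miR-140-3p 102nd and 49th. The groups did not overlap for 101 of the 362 (27.9%), and for 48 of these (13.3% of the 362), miR-140-5p among them, the diabetic libraries were above.

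The call on miR-140-5p changed with the scaling or the test alone. miR-140-3p passed only where scaling, test and filter were all changed together, as in the authors' deposited values given next. The direction was the same throughout. When libraries were scaled by size alone, the log2 fold change was 2.35 (SE 0.47) for miR-140-5p and 1.64 (SE 0.53) for miR-140-3p. The same edgeR test then gave adjusted p = 0.0270 and 0.0576, where 45 of 362 miRNAs (12.4%) were higher. That scaling moved the median log2 fold change of all 362 miRNAs to 0.61, against 0.02 with TMM and -0.28 with upper quartile factors. Measured from the median of each scaling, miR-140-5p stood between 1.73 and 1.76 and miR-140-3p between 0.95 and 1.04 under all 5 scalings tried. A scaling moves all miRNAs of a library by the same factor, so these values had to lie close together and support nothing. The authors' deposited table gave log2 fold changes of 2.35 and 1.64 with false discovery rates of 0.000862 and 0.0424, so that both arms passed 0.05 there. It listed 57 miRNAs as higher at that threshold, 10.1% of the 566 with counts. An edgeR exact test with library size only returned the authors' p-values within 1% for all 566.

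Single libraries also carried weight. Without diabetic replicate 1 the log2 fold change of miR-140-3p was 0.43 (SE 0.50), and without diabetic replicate 3 it was 1.45 (SE 0.41), with adjusted p = 0.727 and 0.0613 in edgeR's quasi-likelihood test. miR-140-5p passed the threshold without control replicate 1 (log2 fold change 2.11, adjusted p = 0.0143 in the same edgeR test) and without diabetic replicate 3 (1.97, 0.0335). Over all miRNAs, 49 of 377 passed without control replicate 1 and 22 of 379 without diabetic replicate 3. miR-140-5p did not pass when any of the other 4 libraries was left out, where its log2 fold change ran from 1.39 to 1.93. In each of those 4 fits 0 miRNAs passed at all.

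**Figure D2:**
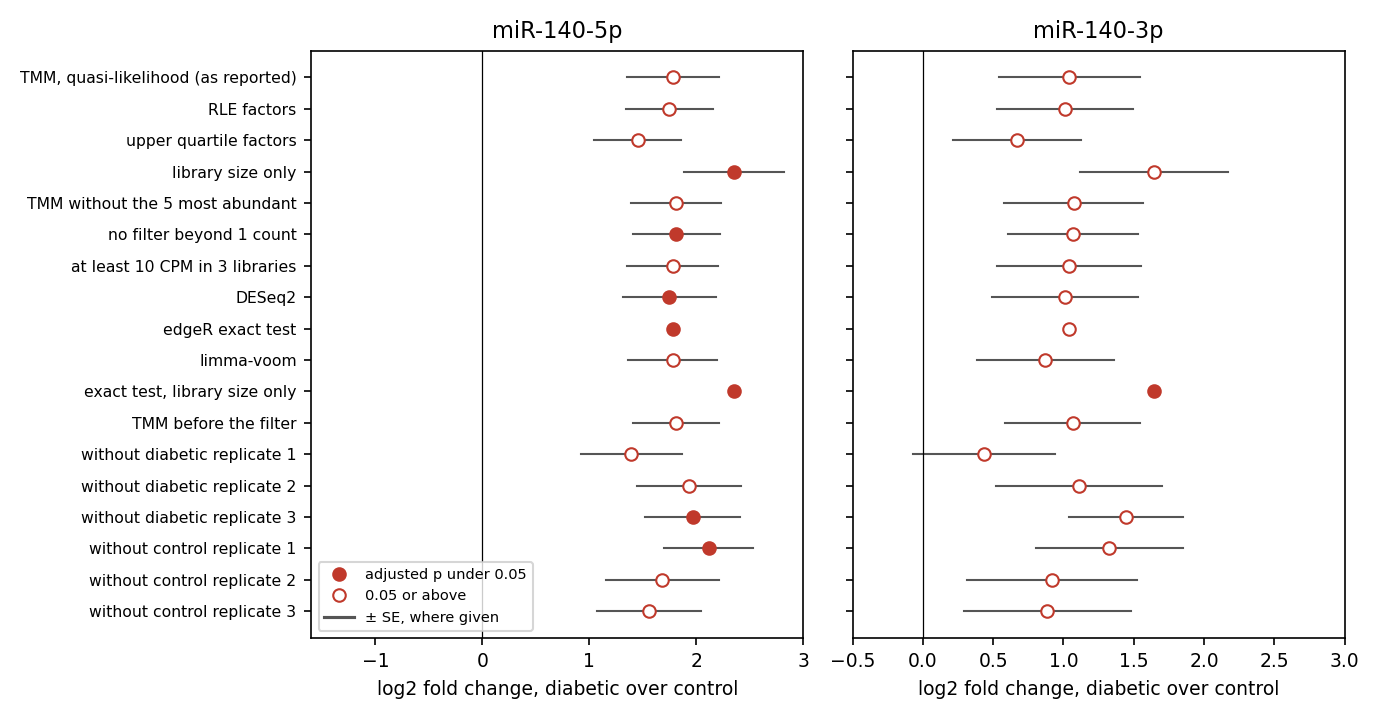
Log2 fold change of miR-140-5p (left) and miR-140-3p (right), diabetic over control, in the reported fit and in other scalings, filters, tests and fits without 1 library. Lines are ± SE where the test gives one, and filled circles have an adjusted p under 0.05; all values lie above 0, and the lowest of the 3p arm is 0.43, without diabetic replicate 1.

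The ratio of the 2 arms within a library does not depend on how libraries are scaled to each other. miR-140-5p made up 1.05% (95% exact Clopper-Pearson interval 1.02 to 1.08), 1.03% (0.985 to 1.07) and 2.19% (2.10 to 2.29) of both arms' counts in diabetic replicates 1, 2 and 3. In control replicates 1, 2 and 3 it made up 0.757% (0.708 to 0.809), 0.762% (0.693 to 0.836) and 0.633% (0.560 to 0.714). These intervals cover counting error only. Put the other way, there were 94.5, 96.3 and 44.6 counts of miR-140-3p per count of miR-140-5p in the diabetic libraries, against 131, 130 and 157 in the control libraries. All 3 diabetic libraries had a larger 5p share than any control library. Diabetic replicate 3, the library with the least miR-140-3p of its group, stood farthest from the controls.

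Over all hairpins with both arms tested, the mean log2 ratio of 5p to 3p counts of miR-140 was -6.21 ± 0.63 in diabetic and -7.12 ± 0.15 in control libraries (SD, n = 3 each), a change of 0.91 (SE 0.40). limma with Benjamini-Hochberg adjustment over 95 hairpins gave an adjusted p of 0.159 for this change, which did not pass, while 11 of 95 hairpins (11.6%) did. Without diabetic replicate 3 the change was 0.54 (SE 0.33). The ratio groups did not overlap for 36 of the 95 hairpins (37.9%), and for 18 of them (18.9% of the 95), miR-140 included, the diabetic libraries were above. By size of change miR-140 ranked 25th of 95, between miR-191a (1.08), miR-30a (0.996) and miR-1843a (0.99) just above it and miR-204 (0.84), miR-193a (0.81) and miR-466c (0.81) just below. By how unequal its arms were it ranked 20th, and 53 of the 95 hairpins had more 3p than 5p counts. Both arms of miR-140 lay above 0 in log2 fold change, as did both arms of 29 hairpins in all, while the arms of 43 hairpins lay on opposite sides of 0.

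**Figure D3:**
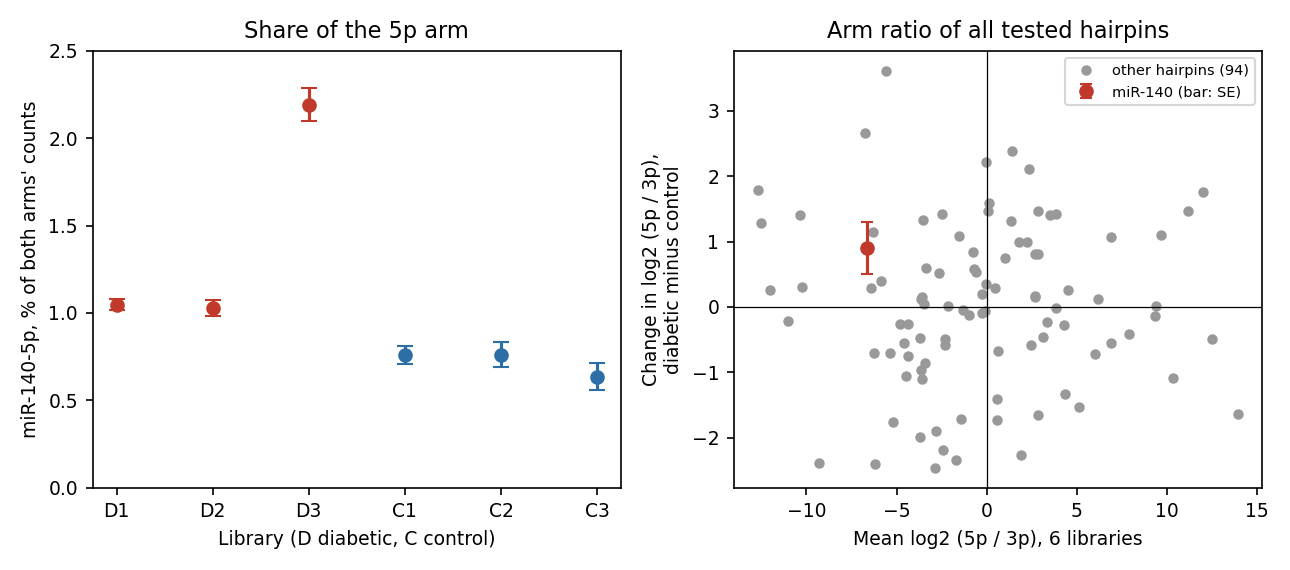
Left, miR-140-5p as a percentage of both arms' counts by library, with 95% exact binomial intervals, diabetic (D, red) and control (C, blue); D3 stands at 2.19% and the controls lie between 0.633% and 0.762%. Right, change in log2 ratio of 5p to 3p counts (diabetic minus control) against the mean log2 ratio for 95 hairpins, where miR-140 (red, bar SE) lies at 0.91 amid the spread of the others.

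Other miRNAs linked to cartilage were examined as a list of 15 further stems, chosen from general knowledge with earlier results of these data known. Of 30 listed arms 23 were tested, and 0 passed edgeR's quasi-likelihood test over all miRNAs, where 9 of the 23 had an unadjusted p under 0.05, against 82 of all 362 (22.7%). With both miR-140 arms added, DESeq2 called 5 of 25, against 42 of all 362 (11.6%). edgeR's exact test also called 5 of 25, against 27 of 362 (7.46%), and limma-voom called 0, against 4 of 362 (1.1%). In DESeq2 and the exact test miR-140-5p, chosen with its fold change known, was among the 5. In both, 4 of the 5 were higher and 1 lower. Of the 23, 12 lay above 0 and 11 below, with a median log2 fold change of 0.16, against 183 above and 179 below and a median of 0.02 over all 362. The median of the 23 was 0.74 with library size only and -0.16 with upper quartile factors.

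miR-455, a chondrocyte miRNA encoded in an intron of the cartilage collagen gene Col27a1, is the nearest companion of miR-140 in cartilage. miR-455-5p stood at 688, 344 and 51.1 normalized CPM in diabetic replicates 1, 2 and 3, against 202, 89.9 and 96.7 in control replicates 1, 2 and 3. miR-455-3p stood at 526, 181 and 37.0 normalized CPM in the diabetic libraries, against 144, 98.0 and 66.9 in the control libraries. Diabetic replicates 1 and 2 were above every control for both arms, and diabetic replicate 3 was the lowest of all 6 libraries. Their log2 fold changes were 1.48 (SE 0.73) and 1.27 (SE 0.73), with adjusted p = 0.228 and 0.296 in edgeR's quasi-likelihood test. miR-675, made from the H19 transcript and raised by SOX9 in human chondrocytes, had 3 counts in each arm over all 6 libraries and was not tested.

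**Figure D4:**
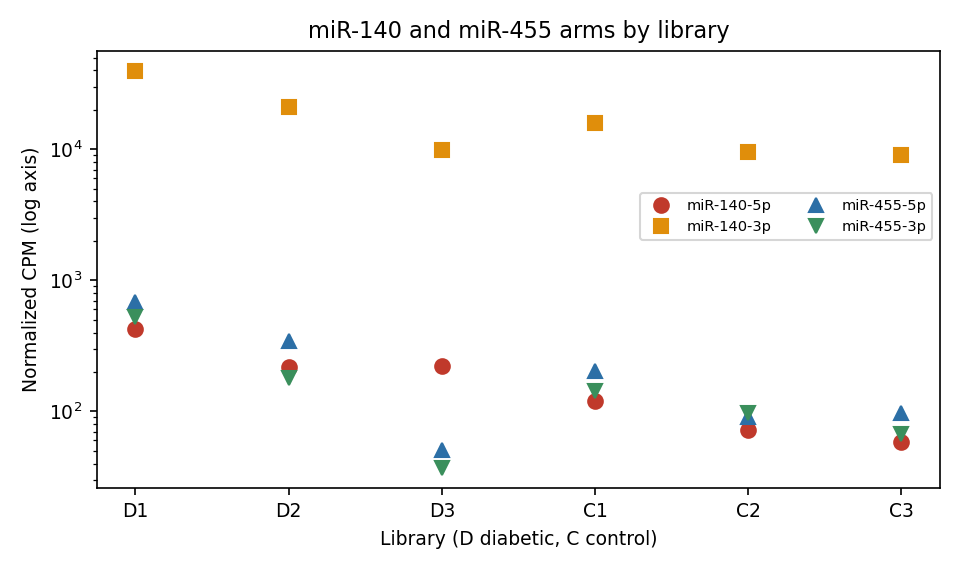
Normalized CPM of both arms of miR-140 and miR-455 in each library, on a log axis, diabetic (D1 to D3) and control (C1 to C3). In D3 both miR-455 arms are at their lowest (51.1 and 37.0) and miR-140-3p is at 9946, while miR-140-5p is at 223, above every control.

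Among miRNAs tied to SOX9, miR-145-5p, which represses SOX9 in mouse and human chondrocytes, stood at 554 ± 272 normalized CPM in diabetic and 174 ± 70.9 in control libraries (SD, n = 3 each), and its log2 fold change was 1.68 (SE 0.45). miR-1247-5p, which represses SOX9 in human chondrocytes, stood at 0.630 ± 0.189 and 4.60 ± 2.80 normalized CPM in diabetic and control libraries (log2 fold change -2.82, SE 0.68), on 93 counts in all. The groups were apart for both, in opposite directions, and their adjusted p was 0.0853 and 0.0647 in edgeR's quasi-likelihood test. The opposite arms, miR-145-3p and miR-1247-3p, stood at -0.71 and -0.59 in log2 fold change. The collagen-repressing miR-29c-3p lay at -0.91 (SE 0.36) in log2 fold change, and miR-29b-3p and miR-29a-3p stood at -0.68 (SE 0.34) and -0.11 (SE 0.32). With library size only these 3 stood at -0.38, -0.14 and 0.47, so that miR-29a-3p changed sign.

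The other members with the smallest p were miR-193b-3p at a log2 fold change of 1.48 (SE 0.43), miR-199a-5p at 1.87 (SE 0.59), miR-27b-5p at 1.59 (SE 0.56), miR-365-5p at -1.38 (SE 0.53) and miR-27a-5p at -0.95 (SE 0.37). miR-27b-5p and miR-365-5p had 145 and 220 counts in all. The opposite arms stood at -1.12 for miR-193b-5p, 1.23 for miR-199a-3p, 0.16 for miR-27b-3p, 0.37 for miR-365-3p and -0.31 for miR-27a-3p. miR-27a-5p and miR-365-5p lay below 0 also with library size only, at -0.34 and -0.81. miR-146a-5p, a brake on inflammatory signalling, had a log2 fold change of 0.84 (SE 0.34). With library size only, 6 of the 25 list members were higher and 1 lower at an adjusted p under 0.05 in the same edgeR test, against 45 higher and 4 lower of all 362 (13.5% called), whose median then stood at 0.61. miR-140-5p was among the higher ones, and miR-1247-5p was the lower one.

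**Figure D5:**
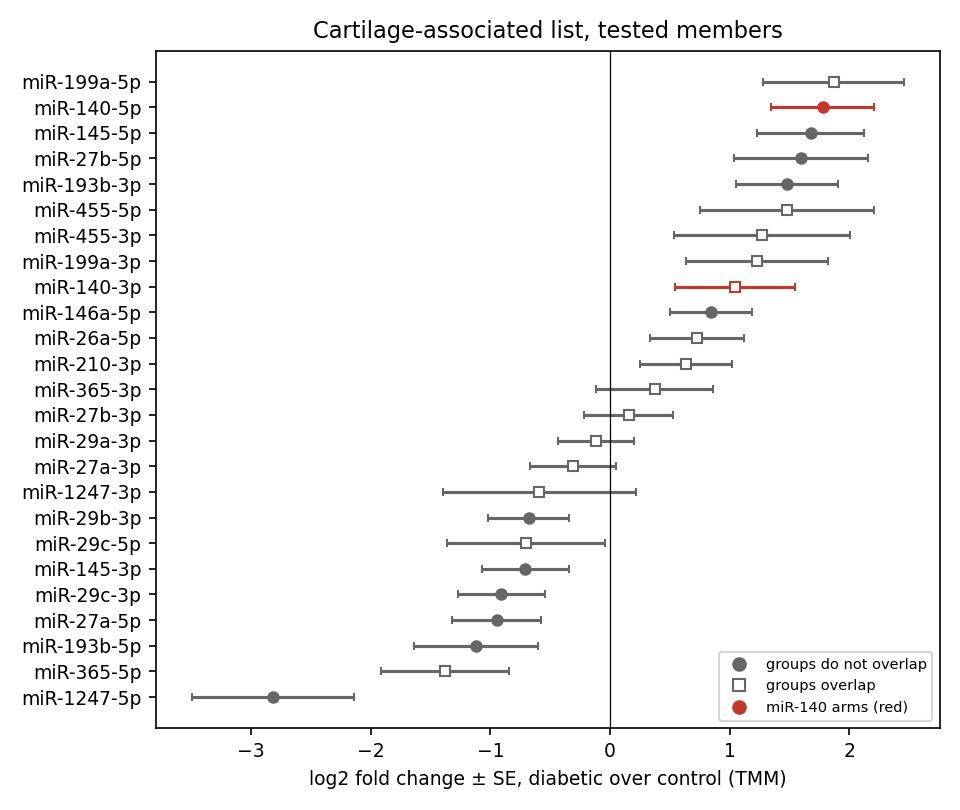
Log2 fold change ± SE, diabetic over control with TMM scaling, of the 25 tested arms of the cartilage-associated list, with filled circles where the groups do not overlap, open squares where they do, and the miR-140 arms in red. The values run from -2.82 for miR-1247-5p to 1.87 for miR-199a-5p.

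The miRNAs whose levels followed each arm most closely over the 6 libraries were different for the 2 arms, apart from miR-181b-5p. For miR-140-5p the highest Pearson correlations of log2 normalized CPM were those of miR-143-5p (0.97), miR-19b-3p (0.97), miR-145-5p (0.97), miR-503-5p (0.96) and miR-181b-5p (0.94). For miR-140-3p they were those of miR-199a-3p (0.99), miR-181a-5p (0.98), miR-431 (0.97), miR-218a-5p (0.97) and miR-181b-5p (0.96), followed in 6th and 9th place by miR-455-5p (0.95) and miR-455-3p (0.93). For miR-140-5p those 2 came 95th (0.61) and 103rd (0.55). The 2 arms of miR-140 correlated with each other at 0.81, which made miR-140-3p the 51st closest to miR-140-5p. These values describe 6 libraries that share their scaling factors, and the group difference enters each of them.

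The libraries also differed in miRNAs of other sources. The erythrocyte miRNAs (miR-451, miR-144 and miR-486, 5 of 5 arms with counts) made up 5.11% to 8.84% of counts in diabetic and 7.01% to 18.3% in control libraries. The miRNAs listed as platelet markers (miR-223, miR-126a and miR-191a, 6 of 6 arms with counts) made up 2.77% to 3.15% in diabetic and 1.57% to 2.09% in control libraries. These miRNAs are not particular to platelets, so their sum does not measure platelet material alone. The liver miRNAs (miR-122 and miR-192, 4 of 4 arms with counts) made up 5.77% to 8.57% and 3.14% to 21.0%, in diabetic and control libraries. The cartilage markers other than miR-140 (miR-455 and miR-675, 4 of 4 arms with counts) made up 0.00989% to 0.155% in diabetic and 0.0115% to 0.0277% in control libraries. Whether the groups overlapped depended on the scale. As shares of counts the platelet groups were apart and the erythrocyte groups overlapped. In normalized CPM the platelet groups overlapped, at 21827 to 28112 in diabetic and 21285 to 26061 in control libraries, and the erythrocyte groups were apart, at 40219 to 72950 in diabetic and 87433 to 187213 in control libraries. On that scale the erythrocyte sum was mostly miR-486, at means of 56804 in diabetic and 114853 in control libraries. miR-451-5p was also below in diabetic libraries, miR-144-5p was above (23.4 and 16.3), and miR-144-3p and miR-451-3p overlapped. The largest part of the platelet sum was miR-191a-5p (14983 and 17164), which overlapped. Both arms of miR-126a were above in diabetic libraries, and the other platelet arms overlapped. The part of these sources in the miR-140 values was not tested. No miRNA table identifies vesicles by their proteins, so the labelled material was not checked that way, and in a bulk sample more vesicles from 1 source and more miR-140 per vesicle cannot be told apart.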

How the data were processed

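Both deposited tables hold whole-number counts per mature miRNA, identical in all 4584 cells. One also holds the authors' CPM, within 0.005 of those recomputed, and the authors' log2 fold changes, p-values and false discovery rates. The table's name has edgeR in it, and the series' design text has DEGseq. Per the submitters' processing notes the build was rn6. The aligner, counter, miRNA release and read filters are not given in the sources used here. Groups and replicate numbers came from the titles. No batch is labelled, and within-group chi-square per degree of freedom was at least 795.8, so no library was a copy.

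Counts as deposited were filtered (filterByExpr, minimum count 10, total 15), scaled by TMM and tested, two-sided, by quasi-likelihood in edgeR 4.0.16 under R 4.3.3, with p adjusted by Benjamini-Hochberg and called under 0.05. The SE is the log2 fold change over the root of F. TMM factors were 1.12 to 1.27 in diabetic and 0.702 to 0.978 in control libraries. Arm ratios (0.5 counts added to each arm, arms paired by name) were tested with limma 3.58.1 and a variance trend. Likeness used log2(normalized CPM + 0.5). DESeq2 1.42.0 was an alternative, and hairpins were folded with ViennaRNA 2.7.2. The quasi-likelihood fit and the arm ratio fit were tested on simulated data, which had less spread than these libraries. The other tests were not tried on simulated data. The members and lists were chosen with earlier results of these data known. Named miRNAs were both arms, list members past the threshold and up to 8 others with the smallest p. The 5 most correlated with each arm and 3 hairpins on each side of miR-140 were also named. miR-455, miR-675, miR-29a-3p, miR-29b-3p and miR-146a-5p were named after their values were seen. So were the opposite arms of list members and the single arms of the erythrocyte and platelet miRNAs. Reads copied by PCR count as separate molecules here.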

Additional observations from a re-analysis of the deposited data

How the results depend on the processing

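The log2 fold changes of both arms stayed above 0 under all 18 alternatives, and the change in arm ratio under all 11. The replicate numbers are shared between groups with no stated link. The deviations of same-numbered libraries correlated at 0.295, -0.0175 and 0.235 for numbers 1, 2 and 3. Those of differently numbered libraries correlated at values between -0.426 and 0.103. So few libraries cannot decide whether the numbers mark a link. With a replicate block miR-140-5p stood at 1.78 and was past the threshold. There 57 of 362 miRNAs passed, 6 of 25 in the cartilage-associated list, and 26 of 95 hairpins. miR-140-3p stood at 0.87 and the arm ratio change at 0.91, neither past the threshold.

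miR-140-5p also passed with library size only (2.35, with 49 of 362 miRNAs and 7 of 25 list members past the threshold). The list here includes both miR-140 arms. With no filter beyond 1 count it passed at 1.81, with 9 of 566 miRNAs and 1 of 32 list members, miR-140-5p itself. It passed with DESeq2 (1.75, 42 of 362 and 5 of 25) and with edgeR's exact test (1.78, 27 of 362 and 5 of 25). The exact test with library size only, added after the data were seen, put miR-140-5p at 2.35 and miR-140-3p at 1.64. Both were past the threshold there, with 63 of 566 miRNAs and 10 of 32 list members. Upper quartile factors and TMM before the filter, the second also added later, left 2 miRNAs each. Leaving out 1 library gave 1.39 to 2.11 for miR-140-5p, 0.43 to 1.45 for miR-140-3p, 0.54 to 1.09 for the arm ratio, 0 to 49 miRNAs, 0 to 5 list members and 0 to 28 hairpins. Hairpins past the threshold numbered 0 with both arms at 1 count or more, where 189 were tested, and 19 with a variance trend over the less abundant arm, added later, against 11 as reported. The cause of these differences was not tested. The smallest count of either arm in a library was 266, of miR-140-5p in control replicate 3.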
